A study of Mus musculus with 75 samples.

Results

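A set of 10 genes of force sensing and the YAP pathway were followed in mouse kidneys 3 days after unilateral ureter obstruction (UUO). They were chosen by symbol among the 32245 genes of the deposited count table, and all 10 were found. The channel genes were *Piezo1*, *Piezo2*, *Pkd1*, *Pkd2*, and *Trpv4*, the coactivator genes were *Yap1* and *Wwtr1*, and the target or feedback genes were *Ankrd1*, *Amotl2*, and *Lats2*. In UUO 1 ureter is tied, urine backs up, and the tubules above the ligature are stretched, while the contralateral (CL) kidney drains freely. Each kidney gave 1 library of whole-tissue RNA, and the 75 libraries fall into 12 groups and 3 arms. In the ABTAA arm, 8 libraries were IgG CL, 8 IgG UUO, 7 ABT CL, and 7 ABT UUO, from C57BL6/J or wild-type mice given either ABTAA, an antibody that clusters ANGPT2 and so activates the endothelial receptor TIE2, or human IgG Fc. In the *Veptp* arm, 7 were VeWT CL, 8 VeWT UUO, 6 VeKO CL, and 8 VeKO UUO. VeKO mice carried floxed *Veptp* (*Ptprb* in the table), the gene of an endothelial phosphatase that restrains TIE2, with the tamoxifen-driven, endothelium-directed *Cdh5*-CreERT2, and VeWT mice carried 1 floxed allele and the same Cre without induction. In the *Pdgfb* arm PbWT CL, PbWT UUO, PbKO CL, and PbKO UUO had 4 libraries each. PbKO mice carried floxed *Pdgfb*, the gene of a growth factor for pericytes and fibroblasts, with a whole-body *Actb*-CreERT2, and PbWT mice carried floxed alleles without Cre. The mice were adults of both sexes, the knockout lines were on a mixed background, and all groups received carprofen.

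PIEZO1 and PIEZO2 are cation channels that open when the membrane is stretched. Polycystin-1 (*Pkd1*) and polycystin-2 (*Pkd2*) form a receptor and channel complex of the primary cilium and other membranes, and mutations in either gene cause autosomal dominant polycystic kidney disease. TRPV4 is a cation channel opened by osmotic swelling and flow, known in the kidney from the distal nephron and collecting duct. YAP (*Yap1*) and TAZ (*Wwtr1*) carry mechanical cues to the nucleus, where they bind TEAD factors and switch on target genes. In the Hippo pathway the kinases LATS1 and LATS2 phosphorylate YAP and TAZ and keep them in the cytoplasm, so that YAP activity is set largely by protein location and not by the amount of its mRNA. *Ankrd1* is among the most used YAP target genes, and *Amotl2* and *Lats2* are both targets and inhibitors of the pathway.

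The genes lie on separate chromosomes except for 2 pairs. In GRCm38, by the GENCODE vM21 annotation, *Piezo1* spans chr8:122481698-122551329 on the minus strand, *Pkd1* chr17:24549834-24596508 on the plus strand, *Pkd2* chr5:104459450-104505819 on the plus strand, and *Trpv4* chr5:114622152-114658421 on the minus strand. *Yap1* spans chr9:7931999-8004596 and *Wwtr1* chr3:57455649-57575910, both on the minus strand. *Ankrd1* spans chr19:36111961-36120099 on the minus strand, *Amotl2* chr9:102716672-102733418 on the plus strand, and *Lats2* chr14:57689662-57758388 on the minus strand. *Piezo1* shares 2441 bases with *Ctu2*, a tRNA-modifying enzyme gene on the opposite strand, and *Pkd1* shares 693 bases with *Tsc2* on the opposite strand. *Yap1* shares 11167 bases with *Gm20416* on the opposite strand, a transcript with a median of 1 count per library. The annotation also places *Gm20388* on the opposite strand across all 69632 bases of *Piezo1* and *Gm49361* on the same strand over 56442 bases of *Lats2*, and these were not analysed here. The sources used here do not say whether the counting used strand, and without strand reads from these shared bases cannot be assigned to one gene of a pair.

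Promoter windows of 4 genes are printed here because *Ankrd1* and *Piezo1* carried the clearest responses to UUO, and *Amotl2* and *Lats2* are the other targets of the pathway. Each window runs from 250 bases before the annotated start to 50 bases from it, 5′ to 3′ along the gene, from RefSeq on GRCm38.p6. Capitals mark GGAATG, the core that TEAD factors recognize, searched on both strands (CATTCC on the opposite strand).
Ankrd1, chr19:36119795-36120094, minus strand: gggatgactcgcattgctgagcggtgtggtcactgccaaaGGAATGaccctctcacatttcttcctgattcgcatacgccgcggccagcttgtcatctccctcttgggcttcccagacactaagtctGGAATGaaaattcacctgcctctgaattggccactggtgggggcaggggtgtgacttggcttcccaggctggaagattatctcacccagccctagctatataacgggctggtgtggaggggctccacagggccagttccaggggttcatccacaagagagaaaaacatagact
Amotl2, chr9:102717554-102717853, plus strand: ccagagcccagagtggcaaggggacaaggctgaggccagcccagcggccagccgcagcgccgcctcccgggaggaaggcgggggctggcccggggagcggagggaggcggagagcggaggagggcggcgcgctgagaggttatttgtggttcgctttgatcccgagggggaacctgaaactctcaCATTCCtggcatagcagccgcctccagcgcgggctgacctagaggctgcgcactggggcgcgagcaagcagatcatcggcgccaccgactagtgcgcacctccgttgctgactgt
Lats2, chr14:57746074-57746373, minus strand: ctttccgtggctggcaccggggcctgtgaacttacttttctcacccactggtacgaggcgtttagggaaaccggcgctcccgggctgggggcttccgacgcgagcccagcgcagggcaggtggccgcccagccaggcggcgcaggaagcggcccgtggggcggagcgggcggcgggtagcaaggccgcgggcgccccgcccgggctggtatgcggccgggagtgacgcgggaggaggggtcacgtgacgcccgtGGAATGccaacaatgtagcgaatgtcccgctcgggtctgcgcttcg
Piezo1, chr8:122551280-122551579, minus strand: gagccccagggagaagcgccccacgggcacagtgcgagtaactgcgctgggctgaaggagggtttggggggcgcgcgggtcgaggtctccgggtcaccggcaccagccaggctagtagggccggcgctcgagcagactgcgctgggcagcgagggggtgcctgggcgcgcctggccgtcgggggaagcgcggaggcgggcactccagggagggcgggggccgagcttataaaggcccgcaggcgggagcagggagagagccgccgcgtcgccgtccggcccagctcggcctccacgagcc
The *Ankrd1* window held GGAATG at positions -210 and -123 from the start, the *Amotl2* window held it at -65 on the opposite strand, and this *Lats2* window held it at 5. The *Piezo1* window held none, and neither did the other *Lats2* window that was read, chr14:57734369-57734668. Of the 9 genes whose windows were read, 6 had at least 1 match in at least 1 of their windows, these 3 together with *Pkd2*, *Yap1*, and *Wwtr1*, whereas *Piezo1*, *Pkd1*, and *Trpv4* had none. Over the whole RefSeq table, 4817 of 32851 windows (14.7%), or 16.6% of 27025 genes, held the motif. The CArG box bound by SRF occurred in none of the 9 genes and in 1.63% of all windows. A match is a stretch of letters and not a measured binding site.

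The libraries held between 172827 and 2341800 counts (median 757897), which left few counts for most of these genes. The median count per library was 102 for *Pkd2*, 41 for *Piezo1*, 40 for *Wwtr1*, 34 for *Trpv4* and for *Yap1*, 26 for *Amotl2*, 21 for *Lats2*, and 20 for *Pkd1*. *Ankrd1* had a median of 5 counts with 9 libraries at 0, and *Piezo2* had 4 with 8 libraries at 0. Values are CPM, counts per 1000000 of the library's scaled total, with the scaling done within each arm, so levels are compared between groups of an arm and not between genes or arms. Fold changes, on the log2 scale, and adjusted p-values came from edgeR's quasi-likelihood test over all genes of an arm, and a gene is said to rise or fall only at an adjusted p under 0.05. The filter on low counts kept 10 of the 10 genes in the *Veptp* and *Pdgfb* arms and 9 in the ABTAA arm, where *Piezo2* was not tested. It asked for 10 counts at the median depth in as many libraries as the smallest group holds. *Piezo2* met this in 4 libraries of the *Pdgfb* arm, all PbWT UUO, and in 6 of the *Veptp* arm, 5 of them VeWT UUO and 1 VeKO UUO. *Ankrd1* met it in UUO libraries alone in all 3 arms, so both genes entered the test through the groups where they are high. Of the 75 libraries 45 have run-on names (such as B4) and 30, in the ABTAA and *Veptp* arms, have split names (such as N_9), and these naming styles differed in several of the genes. In the *Veptp* arm the styles also differed in depth, with 178137 to 858624 counts in run-on and 960023 to 2341800 in split libraries. *Pdgfb* was not lower in the CL libraries labelled PbKO (19.0 ± 3.98 CPM, SD, n = 4) than in PbWT CL (10.4 ± 6.72), and in UUO it was 37.1 ± 3.15 in libraries labelled PbKO and 52.9 ± 6.62 in PbWT, so the deletion was not visible in the CL counts. *Ptprb* averaged 34.1 ± 6.38 CPM in VeKO CL against 53.9 ± 21.4 in VeWT CL. At least 10 counts of both *Xist* and Y-linked genes were present in 24 of 75 libraries, including 4 of 4 labelled PbKO UUO, 2 of 4 PbWT UUO, 2 of 4 PbWT CL, and 0 of 4 PbKO CL. PbWT CL also includes kidneys of 2 sham-operated mice, as the study's methods state, and the labels do not mark which libraries these are. By the study's methods the CL kidney is the other kidney of the obstructed mouse, but the labels do not say which libraries share a mouse, so the tests treat CL and UUO libraries as separate, and p-values measure the spread between these libraries. The study's methods count fewer VeWT mice than there are VeWT UUO libraries, and which library this concerns is not known here.

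In control mice UUO raised *Piezo1*, *Pkd1*, and *Ankrd1* in all 3 arms, while no gene of the 10 fell. In IgG mice 4 of the 9 genes tested rose, where 16.0% of all genes tested rose and 34.3% changed in either direction. In VeWT mice 4 of 10 rose (10.0% of all genes rose, 18.4% changed), and in PbWT mice 5 of 10 rose (17.9% rose, 37.3% changed). These counts include *Ankrd1*, and in VeWT and PbWT mice *Piezo2*, which entered the test through UUO libraries alone. The counts of ABT and VeKO mice below include *Ankrd1* too. *Yap1*, *Pkd2*, *Trpv4*, and *Amotl2* passed the test in none of the 3 controls. The plot of log2 fold changes by comparison shows the same contrast between genes.

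**Figure D1:**
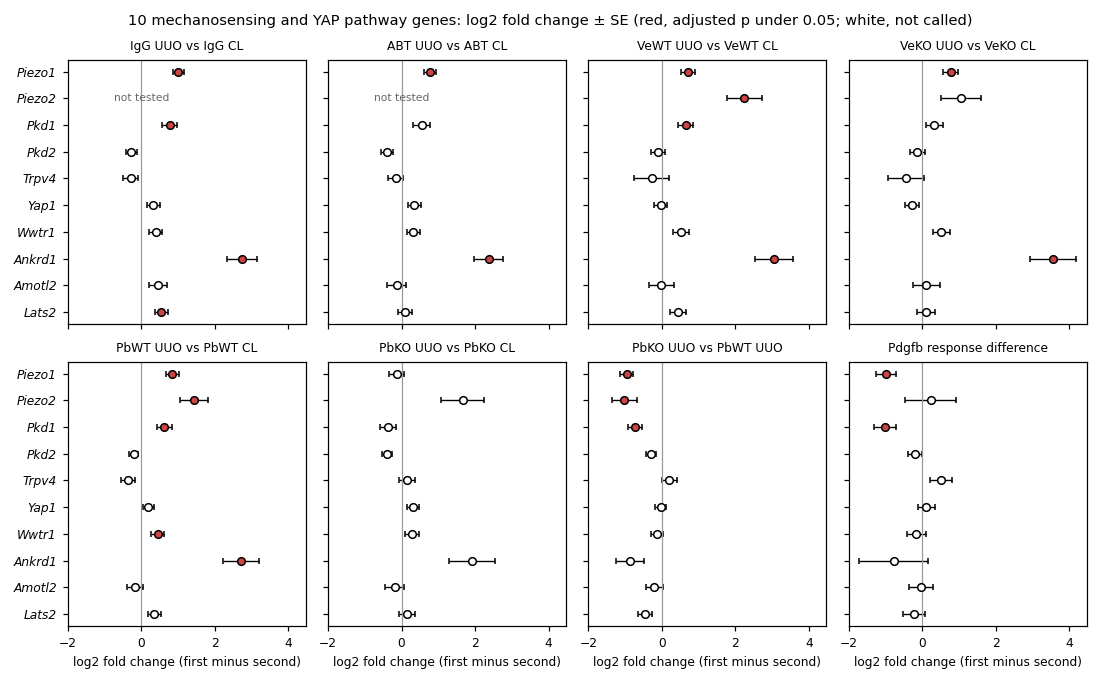
Log2 fold changes with their standard errors (x axis) of the 10 genes (y axis) in the comparisons of the 3 arms, from edgeR's quasi-likelihood fit; red points have an adjusted p under 0.05. *Ankrd1* lies far to the right in the UUO against CL panels of the control mice, *Yap1* near 0, and *Piezo1* and *Pkd1* to the left where PbKO UUO is set against PbWT UUO.

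*Piezo1* rose about 1.6- to 2-fold with UUO in the controls. In IgG mice it ranged from 24.8 to 49.5 CPM in CL kidneys (median 44.8) and from 69.0 to 99.0 in UUO kidneys (median 84.3). The ranges did not overlap, as for 9.54% of all genes in that comparison, and the change was 1.01 (SE 0.16, adjusted p = 3.39e-06). In VeWT mice CL kidneys ranged from 33.6 to 64.3 CPM (median 42.1) and UUO kidneys from 68.0 to 89.0 (median 76.4), again without overlap, as for 5.56% of all genes (log2 0.72, SE 0.19, adjusted p = 0.006427). Without the libraries numbered 3, 4, 7, and 8, whose CL and UUO kidneys carry opposite genotype labels under 1 number, the increase was 0.79 (adjusted p = 0.06186). In the PbWT libraries *Piezo1* was 42.1, 57.2, 35.4, and 53.4 CPM in CL kidneys and 80.3, 89.9, 79.3, and 90.1 in UUO kidneys. Every UUO kidney lay above every CL kidney here too, which was so in either direction for 34.2% of all genes (log2 0.84, SE 0.17, adjusted p = 0.0003979).

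*Ctu2*, which overlaps *Piezo1*, moved with it. *Ctu2* rose with UUO by 0.88 in IgG mice (adjusted p = 0.000256), by 0.62 in VeWT mice (adjusted p = 0.02794), and by 0.76 in PbWT mice (adjusted p = 0.001725). Its profile over the 12 group means was also the one most like that of *Piezo1* among 9554 genes (Pearson r = 0.98), a description over groups of 3 arms that were scaled separately, so that differences between arms enter it. *Tsc2*, which overlaps *Pkd1*, was at -0.02 in IgG mice, 0.06 in VeWT, and -0.29 in PbWT and passed the test in none. The part of shared reads in the *Piezo1* result was not tested.

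*Piezo2* was sparse and sat higher in UUO kidneys. In VeWT mice it went from a median of 2.07 CPM in CL kidneys (0 to 6.37) to 10.1 in UUO kidneys (2.65 to 20.9), an increase of 2.25 (SE 0.48, adjusted p = 0.0006795) with overlapping ranges and at most 5 counts in any CL library. With no filter on low counts it was 2.24 (adjusted p = 0.0004895). *Piezo2* had reached the filter in just the 6 libraries needed, all UUO, so that without any one of them (5 VeWT UUO, 1 VeKO UUO) it was not tested. In PbWT mice CL kidneys had 4.43, 5.58, 10.3, and 3.14 CPM and UUO kidneys 18.2, 17.3, 9.92, and 17.6, an increase of 1.43 (SE 0.37, adjusted p = 0.003256), or 1.45 with no filter on low counts (adjusted p = 0.00104). Both groups met only at 1 CL and 1 UUO kidney near 10 CPM. In the ABTAA arm, without a test, *Piezo2* had medians of 2.19 CPM in IgG CL, 10.7 in IgG UUO, 2.81 in ABT CL, and 8.50 in ABT UUO. Since 8 libraries held no *Piezo2* count, its fitted folds depend on the small count that edgeR adds before the logarithm.

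*Pkd1*, the large receptor-like polycystin, rose by 0.77 in IgG mice (SE 0.22, adjusted p = 0.004943), from a median of 22.9 CPM in CL kidneys (10.3 to 34.7) to 41.3 in UUO kidneys (26.4 to 57.0). In VeWT mice CL kidneys ranged from 17.1 to 26.3 CPM and UUO kidneys from 21.2 to 52.2, and the increase of 0.65 (SE 0.21) was close to the threshold (adjusted p = 0.03193). Omission of any one of 7 libraries took it past 0.05 (adjusted p up to 0.07426), as did a fit of the run-on libraries alone (0.57, adjusted p = 0.3675) or without the libraries numbered 3, 4, 7, and 8 (0.57, adjusted p = 0.2694). In PbWT mice the CL values of 16.6, 20.9, 28.0, and 25.1 CPM all lay below the UUO values of 41.4, 32.8, 32.5, and 33.3 (log2 0.63, SE 0.20, adjusted p = 0.01301). Without PbWT CL replicate 1 this adjusted p was 0.06393.

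*Pkd2* and *Trpv4* did not pass the test with UUO. *Pkd2* was lower on average in UUO than in CL kidneys in every pair of groups, by -0.27 in IgG mice (adjusted p = 0.1787), -0.11 in VeWT (adjusted p = 0.7764), and -0.21 in PbWT (adjusted p = 0.2162), with overlapping ranges. *Trpv4* was at -0.29, -0.28, and -0.36 in the same order, with adjusted p-values of 0.3013, 0.7597, and 0.1495. Without PbWT CL replicate 1 *Trpv4* was called in PbWT mice (-0.56, adjusted p = 0.01233). Both genes differed by naming style. *Pkd2* ranges of run-on and split libraries did not overlap in IgG CL (113 to 139 against 157 to 192 CPM) and ABT UUO (80.1 to 100.3 against 117 to 159), nor, with the split libraries lower, in VeKO CL (117.4 to 138 against 100.4 to 116.8) and VeWT UUO (99.8 to 160 against 65.1 to 96.8). *Trpv4* separated the libraries of the *Veptp* arm. Its run-on libraries averaged 34.3 CPM in VeWT CL, 48.2 in VeKO CL, 36.5 in VeWT UUO, and 38.7 in VeKO UUO, and split ones averaged 186, 155, 163, and 134. No library of one style overlapped the other within a group of that arm, whereas in IgG CL the averages were 48.9 and 57.8 and the ranges overlapped.

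**Figure D2:**
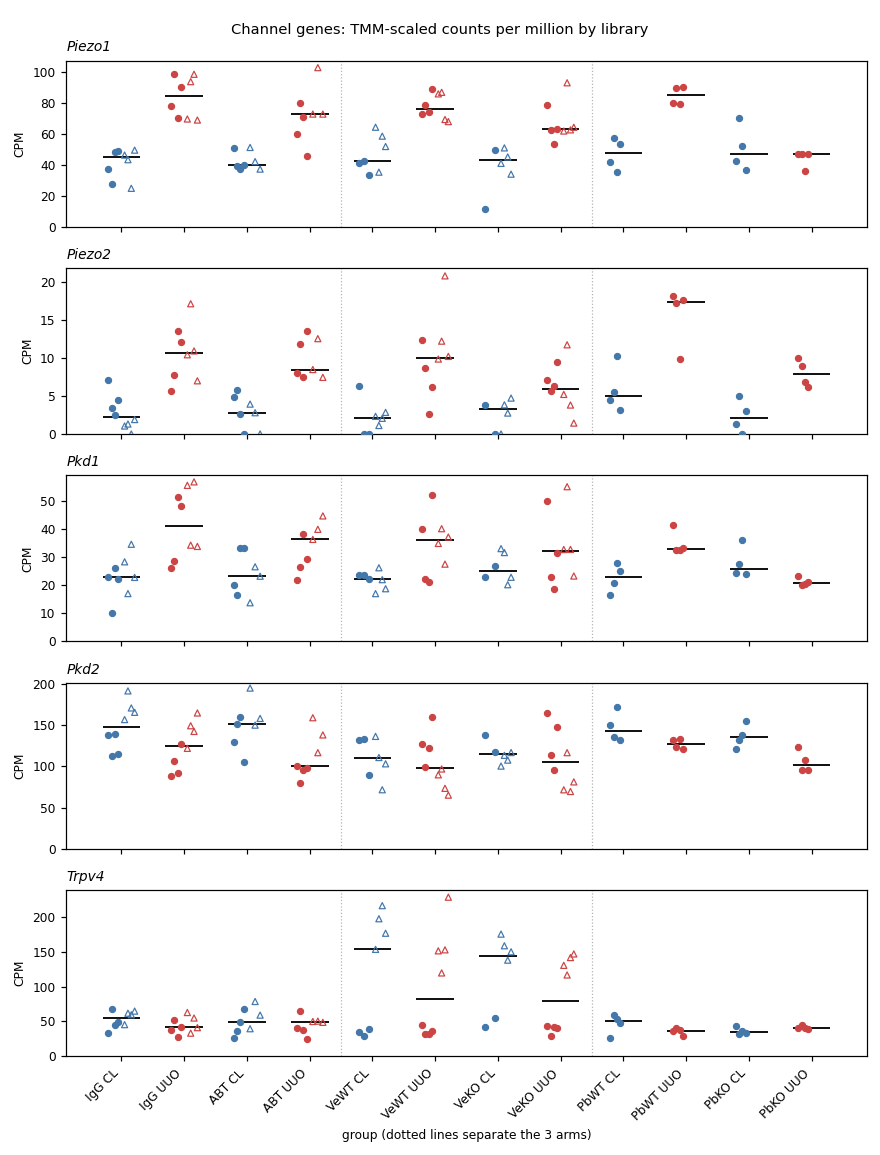
TMM-scaled CPM (y axis) of the 5 channel genes in each library, by group (x axis); filled circles are libraries with run-on names, open triangles those with split names, blue is CL, red is UUO, and the black bar is the median. *Piezo1* is higher in the UUO groups except PbKO UUO (35.9 to 47.1 CPM), and *Trpv4* forms separate bands by naming style in the *Veptp* arm.

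Of the coactivators, *Wwtr1* passed the test with UUO in PbWT mice and *Yap1* in no group, and the difference between both genes was not tested. *Wwtr1* rose in PbWT mice from 53.2, 58.6, 45.7, and 45.0 CPM in CL kidneys to 64.6, 79.2, 74.2, and 56.8 in UUO kidneys (log2 0.45, SE 0.17, adjusted p = 0.04309). The ranges overlapped by 1 UUO kidney, and 9 of 16 omissions of 1 library lost the call (adjusted p up to 0.1307). It was at 0.39 in IgG mice (adjusted p = 0.08895) and at 0.52 in VeWT mice (adjusted p = 0.09317). Calls were gained in IgG mice without IgG CL replicate 2 (0.46, adjusted p = 0.04653) or ABT CL replicate 5 (0.38, adjusted p = 0.0465), and in VeWT mice without VeWT CL replicate 3 (0.71, adjusted p = 0.0121). With naming style as a covariate it rose in both, by 0.40 (adjusted p = 0.03535, where 40.2% of all genes changed) and by 0.49 (adjusted p = 0.0122, where 33.9% did). In VeWT UUO its level averaged 89.0 CPM in run-on and 48.9 in split libraries. With shared library numbers as a replicate block *Wwtr1* rose by 0.56 in VeWT mice (adjusted p = 0.004956, where 29.8% of all genes changed). That block sets the split libraries apart from the run-on ones, so it also takes out naming style.

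*Yap1* had medians of 44.5 CPM in IgG CL (37.2 to 54.3) and 54.4 in IgG UUO (35.1 to 80.1). Its log2 fold change was 0.33 (SE 0.17, adjusted p = 0.1485), with the UUO range enclosing the CL range. In VeWT mice the value was -0.03 (SE 0.17, adjusted p = 0.9336), from a CL median of 46.5 to a UUO median of 44.8. In PbWT mice it was 0.20 (SE 0.15, adjusted p = 0.3458).

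*Ankrd1*, a stress-induced ankyrin repeat protein and YAP target, had the largest fold among the tested genes of the set in each control. In IgG mice 5 of 8 CL libraries held no count, the highest CL value was 10.0 CPM, and the UUO libraries ranged from 15.3 to 31.3 (median 20.3), without overlap. The fitted increase was 2.75 (SE 0.40, adjusted p = 1.004e-06). In VeWT mice CL kidneys ranged from 0 to 8.95 CPM (median 1.69) and UUO kidneys from 7.95 to 67.7 (median 22.8), with an increase of 3.06 (SE 0.52, adjusted p = 6.07e-05). The VeWT UUO average was 15.3 CPM in run-on and 49.2 in split libraries. In PbWT mice the CL values of 1.11, 6.97, 0, and 6.28 CPM lay below the UUO values of 18.8, 16.7, 29.4, and 35.3 (log2 2.705, SE 0.49, adjusted p = 8.122e-05). Because CL counts were 0 to 16 per library over these 3 groups, the size of the fold depends on the count edgeR adds. *Ankrd1* reached the filter through UUO libraries alone, and with no filter on low counts its increase was 2.702 in IgG (adjusted p = 1.011e-10), 3.02 in VeWT (adjusted p = 1.207e-05), and 2.72 in PbWT mice (adjusted p = 7.243e-12). *Ankrd1* is also a heart and muscle gene. The summed level of 4 cardiac muscle markers (*Myh6*, *Tnnt2*, *Tnni3*, *Myl2*) was at most 6.82 CPM in any library, and *Myh6* was at 0 in 50 of 75 libraries. The summed level of 6 skeletal muscle markers (*Acta1*, *Ckm*, *Mylpf*, *Tnnt3*, *Myh4*, *Myh1*) was higher, at 587 CPM in VeKO UUO replicate 1 and with medians of 1.55 to 12.9 over the groups of the ABTAA and *Veptp* arms. In the *Pdgfb* arm it had medians of 78.6 CPM in PbWT CL (44.6 to 100.3), 9.43 in PbWT UUO (1.96 to 22.0), 114 in PbKO CL (88.2 to 118), and 23.8 in PbKO UUO (5.47 to 66.7), and all 3 of these markers that were tested fell with UUO in both genotypes. *Ankrd1* was 21.5 CPM in VeKO UUO replicate 1, beside a group median of 22.9, and the part of muscle tissue in the *Ankrd1* result was not tested.

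*Lats2* rose in IgG mice, from a median of 25.8 CPM (18.9 to 34.3) in CL to 38.7 (12.1 to 50.2) in UUO kidneys (log2 0.55, SE 0.18, adjusted p = 0.01703). The ranges overlapped, and without IgG UUO replicate 6 the adjusted p was 0.05195. In VeWT mice it was at 0.44 (adjusted p = 0.1825) and in PbWT mice at 0.36 (adjusted p = 0.1412). In PbWT mice the CL values were 26.6, 27.9, 32.5, and 35.6 CPM and the UUO values 39.5, 35.7, 43.6, and 38.2, without overlap, as for 34.2% of all genes there. *Amotl2*, an angiomotin that holds YAP at junctions, was at 0.46 in IgG mice (adjusted p = 0.1594; 0.67, adjusted p = 0.03585, without IgG CL replicate 5), -0.02 in VeWT (adjusted p = 0.98), and -0.16 in PbWT (adjusted p = 0.6155). Its VeWT CL level averaged 32.5 CPM in run-on and 69.8 in split libraries.

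**Figure D3:**
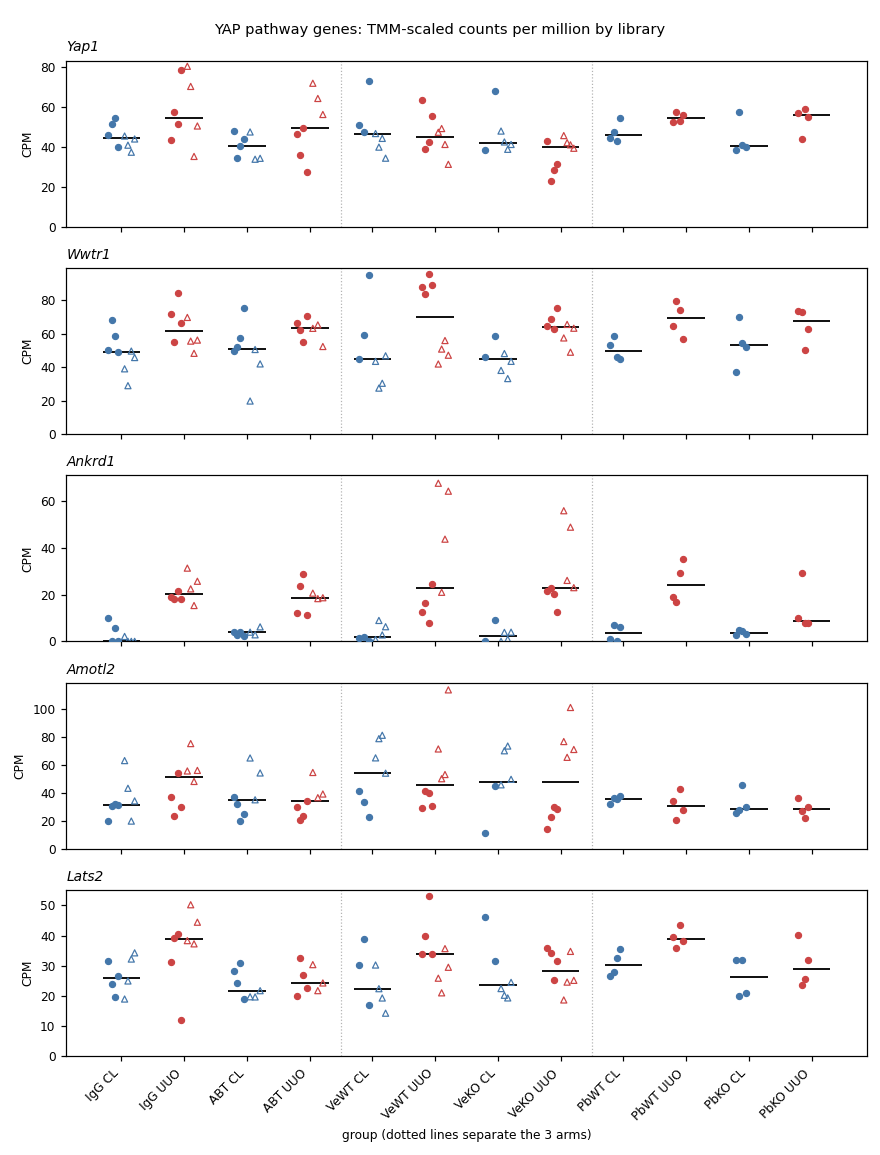
TMM-scaled CPM (y axis) of *Yap1*, *Wwtr1*, *Ankrd1*, *Amotl2*, and *Lats2* in each library, by group (x axis); symbols, colours, and bars are as for the channel genes. *Ankrd1* is at most 10.0 CPM in the CL libraries and at least 7.69 in the UUO libraries, while *Yap1* CL and UUO libraries intermingle.

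These rises came with large shifts in cell type markers. From IgG CL to IgG UUO the summed level of 6 injured tubule markers went from a median of 171 CPM (116 to 211) to 2638 (1842 to 3214), that of 6 mesenchyme markers from 184 (127 to 267) to 1235 (895 to 1311), and that of 7 proximal tubule markers from 5847 (4502 to 6863) to 2439 (1937 to 3542). All 6 injured tubule and all 6 mesenchyme markers rose and all 7 proximal tubule markers fell. All 5 macrophage and 2 of 7 endothelium markers also rose, and all 4 thick limb and distal tubule and 3 of 5 collecting duct markers fell. In VeWT and PbWT mice all 6 injured tubule and all 6 mesenchyme markers rose too, and 4 and 7 of the 7 proximal tubule markers fell. In whole-kidney RNA a change in the number of cells of a type cannot be told apart from a change in RNA per cell, and the part of these shifts in the results of the 10 genes was not tested.

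Related genes gave context for the 10. Of 16 other YAP and TAZ target genes tested in IgG mice, 9 rose and none fell with UUO, with a list median of 0.57. In VeWT mice 7 of 17 rose (median 0.58) and in PbWT mice 10 of 17 (median 0.76), and again none fell. For these lists the shares of all genes that rose were 16.0%, 10.0%, and 17.9% in IgG, VeWT, and PbWT mice, those that fell 18.4%, 8.38%, and 19.4%, and the medians of all genes 0.01, -0.01, and 0.04. *Myof*, a membrane repair protein, rose by 2.04, 1.89, and 2.20 in IgG, VeWT, and PbWT mice, and *Ccn1*, a matricellular protein, rose by 2.30, 1.91, and 1.95. *F3* (tissue factor), *Ccdc80*, and *Axl* (a receptor tyrosine kinase) also rose in all 3. *Nt5e* and *Igfbp3*, from the same list, passed the test in none, at 0.14 and -0.18 in IgG mice.

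Of the Hippo kinases and adaptors other than *Lats2*, 6 of 21 rose and 1 fell (*Mob1b*) in IgG mice, 4 of 24 rose in VeWT mice, and 8 of 23 rose in PbWT mice. For this list and the MRTF and SRF list the shares of all genes that rose were again 16.0%, 10.0%, and 17.9%. *Map4k4*, a kinase upstream of LATS, rose by 1.51, 1.56, and 0.91, and *Ajuba*, a LIM protein that binds LATS, by 1.45, 0.87, and 1.27. *Tead1*, a DNA-binding partner of YAP and TAZ, rose by 0.49, 0.75, and 0.50 (adjusted p = 0.03752, 0.004282, and 0.0406). Genes of the actin-sensing factors MRTF and SRF had the largest list medians of these sets, with 9 of 10 rising in IgG mice (median 1.55), 8 of 12 in VeWT (median 0.95), and 9 of 11 in PbWT (median 1.44). *Flna*, *Actn1*, and *Tagln*, which encode actin-binding proteins, rose by 2.12, 2.36, and 1.95 in IgG mice, and *Myl9* was at 0.44 (adjusted p = 0.07744).

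Of other stretch-sensitive channel genes none of 10 rose and 3 fell in IgG mice, none of 11 rose and 2 fell in VeWT mice, and none of 10 rose and 3 fell in PbWT mice. In lists this short the shares of all genes that rose (16.0%, 10.0%, and 17.9%) and fell (18.4%, 8.38%, and 19.4%) come to few genes, so these counts do not set the list apart. *Scnn1a*, the alpha subunit of the epithelial sodium channel of the distal nephron, fell by 1.64, 1.43, and 0.98 on the log2 scale. Among polycystin relatives and cilium genes 3 of 17, 1 of 19, and 3 of 18 rose, shares near or below those of all genes (16.0%, 10.0%, and 17.9%), and 1, *Ift20*, fell in PbWT mice. *Bicc1*, which encodes an RNA-binding protein that keeps tubules from forming cysts, rose by 0.999, 0.91, and 0.92. *Pkhd1*, the recessive polycystic kidney disease gene, was at 0.41, 0.42, and 0.28 and passed the test in none.

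**Figure D4:**
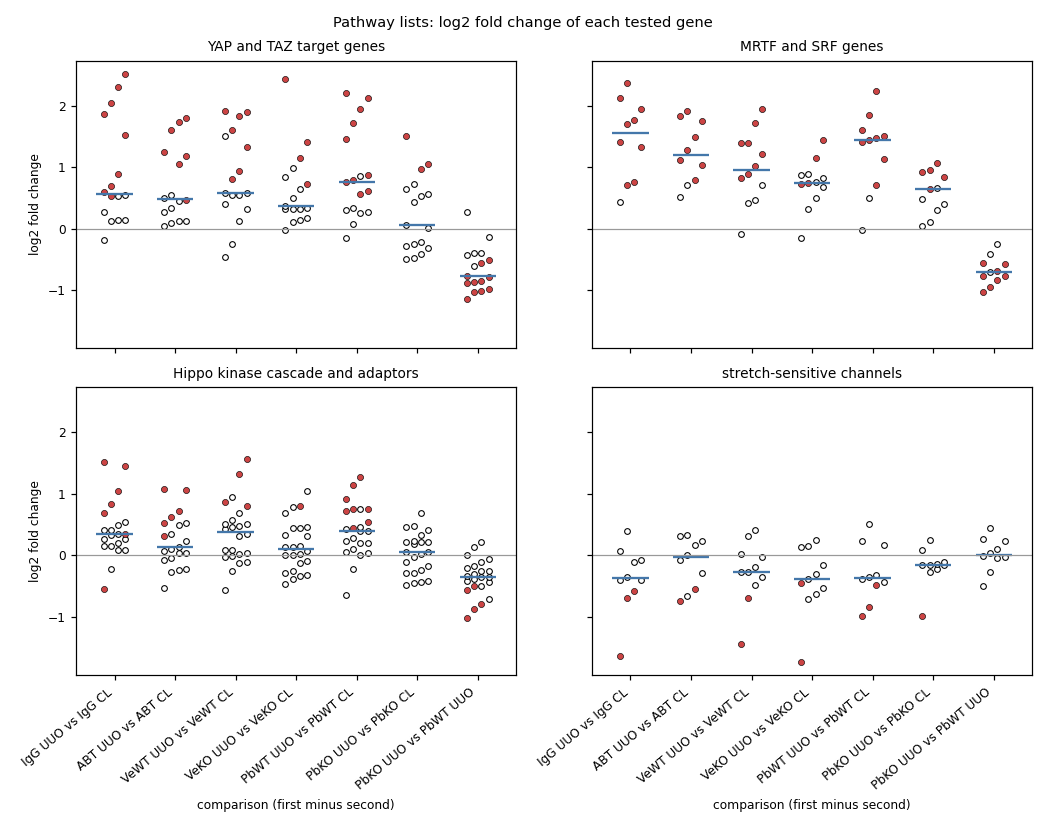
Log2 fold changes (y axis) of the tested genes of 4 pathway lists by comparison (x axis); each point is a gene, red points have an adjusted p under 0.05, and the blue bar is the list median. The YAP and TAZ targets and the MRTF and SRF genes lie mostly above 0 in the controls, and below 0 where PbKO UUO is set against PbWT UUO, while no stretch-sensitive channel gene is red above 0.

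ABTAA left these genes without a detectable difference from IgG. In ABT mice UUO raised *Piezo1* and *Ankrd1*, 2 of the 9 genes tested, where 12.7% of all genes rose and 25.3% changed. *Piezo1* went from a median of 39.8 CPM (37.2 to 51.2) in CL to 72.8 (45.4 to 103) in UUO kidneys, with overlapping ranges (log2 0.77, SE 0.16, adjusted p = 0.0004213). *Ankrd1* went from 3.94 CPM (2.09 to 6.21) to 18.7 (11.4 to 28.9), without overlap, as for 6.91% of all genes (log2 2.37, SE 0.39, adjusted p = 1.527e-05, or 2.34 with no filter, adjusted p = 1.733e-08). *Pkd1* was at 0.54 (adjusted p = 0.0658) and *Pkd2* at -0.40 (adjusted p = 0.06208), and each was called in 3 of the omissions of 1 library (adjusted p down to 0.03702 and 0.0192). With naming style as a covariate, where 32.4% of all genes changed, both passed, at 0.54 (adjusted p = 0.04624) and -0.43 (adjusted p = 0.003573). *Pkd2* also fell with the replicate block (-0.43, adjusted p = 0.02244), where 27.8% of all genes changed. That block sets the split ABT libraries apart from the run-on ones, so it also takes out naming style.

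Between ABT UUO and IgG UUO none of the 9 genes passed the test, as did 0% of all genes, with edgeR's quasi-likelihood test, its exact test, and DESeq2 alike. At an unadjusted p under 0.05 there was 1 of the 9, *Lats2*, and 344 of 9579 genes in all. *Lats2* had a median of 24.3 CPM in ABT UUO (20.1 to 32.6) against 38.7 in IgG UUO (12.1 to 50.2), a difference of -0.58 (SE 0.18, unadjusted p = 0.003527, adjusted p = 0.9992). The ranges overlapped. *Piezo1* differed by -0.20 (SE 0.15) and *Ankrd1* by -0.13 (SE 0.32). Between ABT CL and IgG CL, and between the UUO responses of ABT and IgG mice, 0 of 9 genes and 0% of all genes passed by edgeR's quasi-likelihood test or DESeq2, with 0 of the 9 at an unadjusted p under 0.05 in each and 311 and 323 of all genes.

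In VeKO mice UUO raised *Piezo1* and *Ankrd1*, 2 of 10 genes, where 4.47% of all genes rose and 7.96% changed. *Piezo1* ranged from 11.5 to 51.0 CPM in CL (median 43.0) and from 53.4 to 93.1 in UUO kidneys (median 62.9), and *Ankrd1* from 0 to 9.03 (median 2.38) and from 12.6 to 55.9 (median 22.9). Neither pair of ranges overlapped, which held for 1.21% of all genes. The increases were 0.78 for *Piezo1* (SE 0.20, adjusted p = 0.01322) and 3.55 for *Ankrd1* (SE 0.63, adjusted p = 0.0003407, or 3.57 with no filter, adjusted p = 7.602e-05). *Piezo1* was not called without the libraries numbered 3, 4, 7, and 8, at 0.82 (adjusted p = 0.1887).

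Between VeKO and VeWT UUO kidneys none of the 10 genes passed edgeR's quasi-likelihood test, as did 0% of all genes, while over all genes DESeq2 called 1 and the exact test 4. At an unadjusted p under 0.05 there was 1 of the 10, *Piezo2*, and 424 of 11916 genes in all. *Piezo2* had a median of 6.00 CPM in VeKO UUO (1.44 to 11.8) and 10.1 in VeWT UUO (2.65 to 20.9), a difference of -0.89 (SE 0.42, unadjusted p = 0.03837, adjusted p = 0.9999). Between the CL kidneys and between the responses, 0 of the 10 and 0% of all genes passed by quasi-likelihood or DESeq2, with none of the 10 at an unadjusted p under 0.05 and 230 and 323 of all genes. *Ankrd1* differed by -0.14 between UUO kidneys (SE 0.42) and *Piezo1* by -0.21 (SE 0.18).

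In the *Pdgfb* arm *Piezo1*, *Piezo2*, and *Pkd1* were lower in UUO kidneys labelled PbKO than in PbWT UUO kidneys. These were 3 of 10 genes, where 6.60% of all genes were lower and 18.6% differed. *Piezo1* was 46.7, 47.1, 35.9, and 46.9 CPM in PbKO UUO, all below the PbWT UUO values of 79.3 to 90.1 and within the range of the CL kidneys. The difference was -0.95 (SE 0.18, adjusted p = 0.0003988). *Pkd1* was 23.4, 20.2, 20.5, and 21.1 CPM in PbKO UUO, also below every PbWT UUO kidney (-0.74, SE 0.20, adjusted p = 0.009964). Ranges that did not overlap were found for 22.2% of all genes in this comparison. *Piezo2* was 10.0, 8.97, 6.83, and 6.25 CPM, overlapping the lowest PbWT UUO kidney (-1.02, SE 0.34, adjusted p = 0.03795). It had passed the filter through PbWT UUO alone, with no filter it was at -1.03 (adjusted p = 0.03433), it was not called by DESeq2 (adjusted p = 0.08633) or with all 12 groups in 1 fit (adjusted p = 0.2206), and 6 of 16 omissions of 1 library lost this call (adjusted p up to 0.1232). No single omission lost the calls of *Piezo1* and *Pkd1*, although that of *Pkd1* was lost with all 12 groups in 1 fit (adjusted p = 0.1189) and with thinning to the shallowest library (adjusted p = 0.09863).

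The response to UUO itself differed for 2 of the 10 genes, where 1.90% of all genes had a lower response in PbKO and 8.55% differed. The difference was -0.98 for *Piezo1* (SE 0.27, adjusted p = 0.02197) and -1.003 for *Pkd1* (SE 0.30, adjusted p = 0.03892). PbWT CL, which enters this difference, includes kidneys of sham-operated mice. The *Piezo1* call was lost without PbKO CL replicate 2 (adjusted p = 0.05593) or PbKO UUO replicate 3 (adjusted p = 0.06191), and that of *Pkd1* in 10 of 16 omissions (adjusted p up to 0.0907). Both calls ended with all 12 groups in 1 fit (adjusted p = 0.1756 and 0.3191) and with thinning (0.1338 and 0.2362), and that of *Pkd1* also by DESeq2 (0.0678) and with no filter on low counts (0.1053). *Ctu2* differed by -0.76 between PbKO UUO and PbWT UUO (adjusted p = 0.004076), and its response differed by -0.66 (adjusted p = 0.155). The PbKO UUO libraries were those in which *Xist* and Y-linked counts occurred together in 4 of 4. With *Xist* as a covariate *Piezo2* was no longer called (-0.89, adjusted p = 0.101). The part of such mixtures in these differences was not tested.

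Within PbKO mice none of the 10 genes passed the test of UUO against CL, where 6.36% of all genes did by quasi-likelihood. At an unadjusted p under 0.05 there were 3, *Ankrd1*, *Piezo2*, and *Pkd2*, and 2171 of 10923 genes in all. *Ankrd1* was 2.56, 5.00, 4.54, and 2.99 CPM in CL and 10.0, 29.1, 7.69, and 7.81 in UUO kidneys, without overlap, as for 11.3% of all genes (log2 1.93, SE 0.63, adjusted p = 0.06537). DESeq2, which called 5.67% of all genes, called it (1.96, adjusted p = 0.04619), as did fits without PbKO UUO replicate 3 (2.17, adjusted p = 0.04353) and with no filter on low counts (1.93, adjusted p = 0.00346), where 3.48% of all genes passed. Over all omissions of 1 library the *Ankrd1* value ran from 1.19 to 2.20, with adjusted p up to 0.3311. *Piezo2* also did not overlap, at 1.66 (adjusted p = 0.09645), with at most 8 counts per library. *Pkd1* was higher in every CL kidney, at 24.3, 27.5, 36.3, and 23.9 CPM, than in any UUO kidney (-0.37, adjusted p = 0.3911). *Piezo1* was at -0.14 (adjusted p = 0.771).

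None of *Yap1*, *Wwtr1*, *Ankrd1*, *Amotl2*, and *Lats2* passed the test between PbKO and PbWT UUO kidneys. *Yap1* was 56.7, 43.7, 58.9, and 54.7 CPM in PbKO UUO and 52.1, 57.2, 52.8, and 55.8 in PbWT UUO (-0.03, SE 0.15, adjusted p = 0.9287). *Wwtr1* differed by -0.13 (SE 0.17, adjusted p = 0.6673). *Ankrd1* differed by -0.87 (SE 0.37, adjusted p = 0.1085), and 3 of 4 PbKO UUO kidneys lay below every PbWT UUO kidney while replicate 2 lay among them. Without that library the *Ankrd1* difference was -1.60 (adjusted p = 0.006744). *Lats2* was at -0.45 (adjusted p = 0.1054). Between the CL kidneys of the arm 0 of 10 genes and 0% of all genes passed by quasi-likelihood, exact test, or DESeq2, with 0 and 379 at an unadjusted p under 0.05.

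Of the wider YAP and TAZ target list 11 of 17 genes were lower in PbKO than in PbWT UUO kidneys and none was higher, where 6.60% of all genes were lower and 12.0% higher, with a list median of -0.76 beside -0.02 over all genes. The difference was -1.003 for *Myof*, -1.03 for *Axl*, -0.98 for *F3*, -0.88 for *Ccdc80*, and -0.85 for *Ccn1*. The response to UUO differed for 3 of the 17, *Myof*, *Crim1*, and *Ptpn14*, all toward a lower response in PbKO, the direction in which 1.90% of all genes differed. Among the MRTF and SRF genes 8 of 11 were lower, of which *Acta2* is also one of the mesenchyme markers, and among the Hippo kinases and adaptors 5 of 23, *Stk4*, *Taok1*, *Taok3*, *Map4k4*, and *Ptpn14*, which is on the target list too. None of the 10 other stretch-sensitive channel genes tested differed. In the same libraries the summed mesenchyme markers had a median of 514 CPM (283 to 724) in PbKO UUO and 947 (844 to 1131) in PbWT UUO, injured tubule markers 1359 (867 to 1474) and 2210 (1737 to 2377), macrophage markers 141 (139 to 159) and 238 (183 to 278), and proximal tubule markers 4465 (2711 to 4907) and 1833 (1415 to 2222). Thick limb and distal tubule markers had medians of 3981 CPM (3531 to 5168) and 2293 (2072 to 2422), with 4 of 4 higher and a median difference of 1.26, and collecting duct markers 393 (340 to 420) and 206 (202 to 306), with 2 of 5 higher. None of these 6 pairs of ranges overlapped. Endothelium markers had medians of 128 CPM (119 to 191) and 208 (180.0 to 246), with overlapping ranges and 2 of 7 lower. Podocyte, skeletal muscle, urothelium, fat, and adrenal markers also overlapped, and cardiac muscle markers were at most 3.92 CPM in both groups. The part of these shifts in the lower *Piezo1*, *Piezo2*, and *Pkd1* values was not tested.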

How the data were processed

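Each kidney gave 1 Smart-seq3 library, a protocol that tags the 5′ ends of molecules. The authors ran each sample in 4 wells, merged the reads, mapped them with STAR 2.7.3a, removed duplicates with UMI-tools 1.1.4, and counted them on genes with featureCounts (Subread 1.4.6-p5). The submitters' processing notes name the build mm10, and the sources used here give neither annotation nor strand setting. The authors deposited the result as raw counts per gene and library, without normalization, and all 75 columns were matched to samples by title.

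Tests were run with edgeR 4.0.16 (DESeq2 1.42.0 as an alternative) under R 4.3.3, and plots made in Python 3.11.15 with pandas 2.3.3 and matplotlib 3.10.9. Each arm was fitted over its 4 groups with TMM normalization, filterByExpr, glmQLFit without legacy dispersions, and glmQLFTest, with Benjamini-Hochberg adjustment over the 9579 (ABTAA), 11916 (*Veptp*), or 10923 (*Pdgfb*) genes tested and a threshold of 0.05. The authors used edgeR's exact test, run here as an alternative. Standard errors were the log2 fold change over the square root of F. CPM were counts per 1000000 of the library total times its TMM factor. The procedure was tested on simulated data.

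All 10 genes were fitted in each comparison, except that *Piezo2* was not tested in the ABTAA arm. The text gives every tested gene for UUO against CL in the control mice. In the other comparisons it gives those called and some of the rest. From each pathway list the text names up to 5 genes called in the same direction in all 3 controls. It also names up to 2 of the most expressed genes called in none. For each of the 9 genes tested in all 3 arms the 3 other genes with the most similar group means were found. Other list genes were named after their values were seen, where a count was small or a result turned on them. The members, lists, and tests were chosen with earlier results of these data known. Promoter windows came from a RefSeq table for GRCm38.p6 and were read for 9 of the 10 genes, with *Piezo2* left out beforehand.

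The alternatives were DESeq2, the exact test, no TMM normalization, no filter, a mean count of at least 20, all 12 groups in 1 fit, thinning to the shallowest library, *Xist* or naming style as a covariate, each naming style alone, the number in the library name as a replicate block, each library left out in turn, and, chosen after seeing the data, the *Veptp* arm without libraries numbered 3, 4, 7, and 8. Shared numbers were checked by correlating deviations from group means. In ABT mice the 3 pairs correlated at 0.31 to 0.516 against a median of 0.163 between different numbers, and in the *Veptp* arm the 8 pairs at 0.397 to 0.644, against 0.448. The results are from fits without this block. All same-number pairs exceeded 0.1, but so did 6 of 6 and 54 of 56 pairs of different numbers, and 4 of the 8 *Veptp* pairs carry opposite genotype labels. With naming style removed the ABT pairs were at 0.16 to 0.387, against -0.263 to 0.099 between different numbers, and the *Veptp* pairs at 0.058 to 0.426 (median 0.236), against -0.417 to 0.364 (median -0.031). The ABT numbers were taken as pairs, and the *Veptp* pairing is uncertain.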

Additional observations from a re-analysis of the deposited data

Results flagged for a closer look

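Of 116 gene and group pairs examined, 7 held a library farther from the rest than Dixon's 95% limit allows, where chance gives about 5%. *Piezo1* was 11.52 CPM in VeKO CL replicate 1, on 3 counts, with the other libraries at 33.94 to 50.96, and *Amotl2* was also 11.52 CPM in that library, with the others at 45.16 to 73.58. *Piezo1* was 35.88 CPM in PbKO UUO replicate 3, below the others at 46.71 to 47.07. *Piezo2* was 9.917 CPM in PbWT UUO replicate 3, below the others at 17.27 to 18.19. *Pkd1* was 41.4 CPM in PbWT UUO replicate 1, above the others at 32.53 to 33.31. *Yap1* was 57.52 CPM in PbKO CL replicate 2, above the others at 38.35 to 40.82. *Lats2* was 12.07 CPM in IgG UUO replicate 4, on 2 counts, with the others at 31.07 to 50.22.

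The response to UUO differed between libraries labelled PbKO and PbWT, by edgeR's quasi-likelihood test of the interaction, for *Piezo1* (-0.979, adjusted p = 0.02197) and *Pkd1* (-1.003, adjusted p = 0.03892). Both calls ended with all 12 groups in 1 fit and with thinning, and that of *Pkd1* also by DESeq2 and with no filter.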

How the results depend on the processing

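Of 5019 values recomputed for the 10 genes, 4906 kept their call and, where called, their direction, 66 lost a call, 47 gained one, and none was called in the opposite direction, while 276 that were not called changed sign. Counts of genes called were as follows where they moved beyond 1.5 times or to or from 0, and the causes were not tested unless said. For IgG UUO against CL (4) run-on libraries alone gave 2. For ABT UUO against CL (2) the exact test and a mean count of 20 gave 1, naming style as a covariate, split libraries alone, and no TMM normalization gave 4, and thinning gave 0. For VeWT (4) run-on libraries alone, thinning, and leaving out numbers 3, 4, 7, and 8 each gave 1. For VeKO (2) the first 2 of these gave 0 and the third 1, and run-on libraries alone, with 2 CL kidneys, called 0 of all 7778 genes, so none of the 10 could pass there. For PbWT (5) all 12 groups in 1 fit and a mean count of 20 gave 3 and thinning 1. For PbKO UUO against CL (0) DESeq2, no filter, no TMM normalization, and *Xist* as a covariate each gave 1, *Ankrd1*. For PbKO UUO against PbWT UUO (3) all 12 groups in 1 fit and thinning gave 1 and no TMM normalization gave 6. For the difference in response in the *Pdgfb* arm (2) all 12 groups in 1 fit and thinning gave 0, and DESeq2 and no filter gave 1. Thinning left 4, 6, and 8 of the genes tested in the ABTAA, *Veptp*, and *Pdgfb* arms.

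Leaving out 1 library gave 3 to 5 calls in IgG, 2 to 4 in ABT, 2 to 5 in VeWT, 2 in VeKO, 4 to 5 in PbWT, and 0 to 1 in PbKO mice, 2 to 3 between PbKO and PbWT UUO kidneys, and 0 to 2 for the *Pdgfb* difference in response. The *Piezo1* and *Ankrd1* calls with UUO were never lost in this way in IgG, ABT, VeWT, VeKO, or PbWT mice.

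With the number in the library name as a replicate block the counts were 4 in IgG, 3 in ABT (*Pkd2* added), 5 in VeWT (*Wwtr1* added), and 2 in VeKO mice, and the block changed no other call. Neither the *Pdgfb* arm nor the IgG libraries have shared numbers. The IgG libraries were all put in the same block as the run-on ABT libraries, so the IgG count does not test pairing. In ABT, VeWT, and VeKO mice the split libraries had blocks apart from the run-on ones. The block therefore also takes out naming style there, and the calls it added cannot be credited to pairing.

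Without TMM normalization the median log2 fold change of all genes was 0.21 in IgG, 0.12 in ABT, 0.13 in VeWT, 0.12 in VeKO, and 0.40 in PbWT mice, -0.28 between PbKO and PbWT UUO kidneys, and -0.28 for the difference in response, and the calls it added must be read relative to these. Between PbKO and PbWT UUO kidneys it turned 1314 genes higher and 721 lower into 667 higher and 2383 lower, and with UUO in PbWT mice 1959 higher and 2118 lower into 4335 and 1166.

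Depth limits *Piezo2* and *Ankrd1* most, with medians of 4 and 5 counts per library, and a difference that missed the threshold is not shown to be absent.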

Other observations

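Over the 12 group means of log2(CPM + 1) and 9554 genes tested in all 3 arms, the profile most like that of *Pkd2* was that of *Zhx3* (Pearson r = 0.94), and that of *Wwtr1* was *Vat1* (0.98). *Ankrd1* was most like *Cdkn1a* (0.98), the cell cycle inhibitor p21, and *Lats2* most like *Meaf6* (0.93). The closest profile to *Yap1* was looser, that of *Donson* at 0.88. *Trpv4* was most like *Rab7* (0.99), with *Amotl2* at 0.78 to *Trpv4*, and both of these genes differ by naming style in the *Veptp* arm. Between the genes themselves *Piezo1* was at 0.89 to *Pkd1*, 0.89 to *Ankrd1*, and 0.85 to *Wwtr1*, while it was at 0.31 to *Yap1*. These values describe 12 means from 3 arms that were scaled separately, so that differences between arms enter them, and they carry no test.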
